A study of Mus musculus with 9 samples.

Results

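The 10 genes described here belong to the stress programme of the transcription factor ATF4 and to the supply of amino acids that this programme serves. They are the transcription factors Atf4, Atf5 and Ddit3, the target genes Trib3 and Chac1, the biosynthetic enzymes Asns, Psat1 and Phgdh, and the transporter chains Slc7a11 and Slc3a2. They were taken by gene symbol. Each of the 10 had 1 entry in every table, and all 10 were among the 12663 of 38926 symbols that passed the filter on low counts.

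The cells were murine leukaemia cells carrying the MLL-AF9 fusion, an oncogene of acute leukaemia, and the labels call them tertiary transplanted and a cell line. They were compared in 3 groups of 3 libraries each at day 4 after transduction, with shRNA-1 against Syncrip, with shRNA-2 against Syncrip, and with a control hairpin. Syncrip encodes an hnRNP protein that binds RNA, and every group carried the same fusion. Whether the control hairpin was scrambled, as the labels have it, or directed at luciferase, as the design text has it, could not be settled. Each sample was transduced and handled on its own, per the design text, but separate mice or cultures of origin are not named, so the p-values measure the spread between these samples, which may be technical in part.

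ATF4 is best known from the integrated stress response. Kinases that sense a shortage of amino acids, misfolded protein in the endoplasmic reticulum, haem deficiency or viral RNA phosphorylate the initiation factor eIF2, which lowers translation in general and favours that of the Atf4 mRNA, so the ATF4 protein can change without a change in its mRNA. ATF4 binds DNA as a dimer with C/EBP proteins and other bZIP factors and turns on genes for the synthesis and uptake of amino acids, glutathione metabolism and, under lasting stress, cell death. Many leukaemia cells rely on these genes for growth, and the cleavage of asparagine by asparaginase, a leukaemia drug, induces them.

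The sites through which ATF4 acts are short, and a core of the ATF4-C/EBP composite motif, TGATGNAA, was searched on both strands in the RefSeq promoter windows of GRCm38.p6, each of which runs from 250 bases before to 50 bases after an annotated start site. Of the 32851 windows of all genes, 1304 held the core (3.97%), and 1219 of 27025 genes had such a window (4.51%). All 10 genes matched the table by symbol, with 12 windows in all, and 4 of the 10 had a match: Trib3, Chac1, Asns and Slc7a11. All 4 are known targets of ATF4, but all 10 genes were chosen for its programme and the amino acid supply, with or without a match. A match describes where the letters stand and measures no binding in these cells. The next lines show the stretches of the 3 genes whose match lay before the start site. They run 5′ to 3′ on the strand of the gene, with the match in capitals.
Chac1, chr2:119350993-119351112, plus strand: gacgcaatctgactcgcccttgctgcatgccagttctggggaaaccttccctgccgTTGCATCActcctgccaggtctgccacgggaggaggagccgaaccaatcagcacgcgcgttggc
Asns, chr6:7693210-7693329, minus strand: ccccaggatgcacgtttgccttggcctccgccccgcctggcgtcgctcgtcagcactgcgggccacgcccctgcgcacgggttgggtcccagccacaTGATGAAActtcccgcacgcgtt
Slc7a11, chr3:50443614-50443733, minus strand: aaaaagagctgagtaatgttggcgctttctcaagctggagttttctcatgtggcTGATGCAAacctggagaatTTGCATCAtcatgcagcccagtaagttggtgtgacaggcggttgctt
In Chac1 the match is the reverse complement, 186 to 193 bases before the start site. In Asns it stands as written, 16 to 23 bases before the start site, within the region long studied as the amino acid response element of this gene. Slc7a11 holds the core on each strand, 59 to 66 and 40 to 47 bases before the start site, and the copies do not overlap. In Trib3 the reverse complement lies 14 to 21 bases after the start site. All these distances are from the RefSeq start sites, and the gene positions given below are from GENCODE, whose starts can differ. By the GENCODE starts, the Asns match (chr6:7693225-7693232) lies after the start, inside the gene. The Trib3 match (chr2:152344039-152344046) then lies before the start. No match means only that these letters are absent from the window, since known elements can lie elsewhere in a gene.

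**Figure D1:**
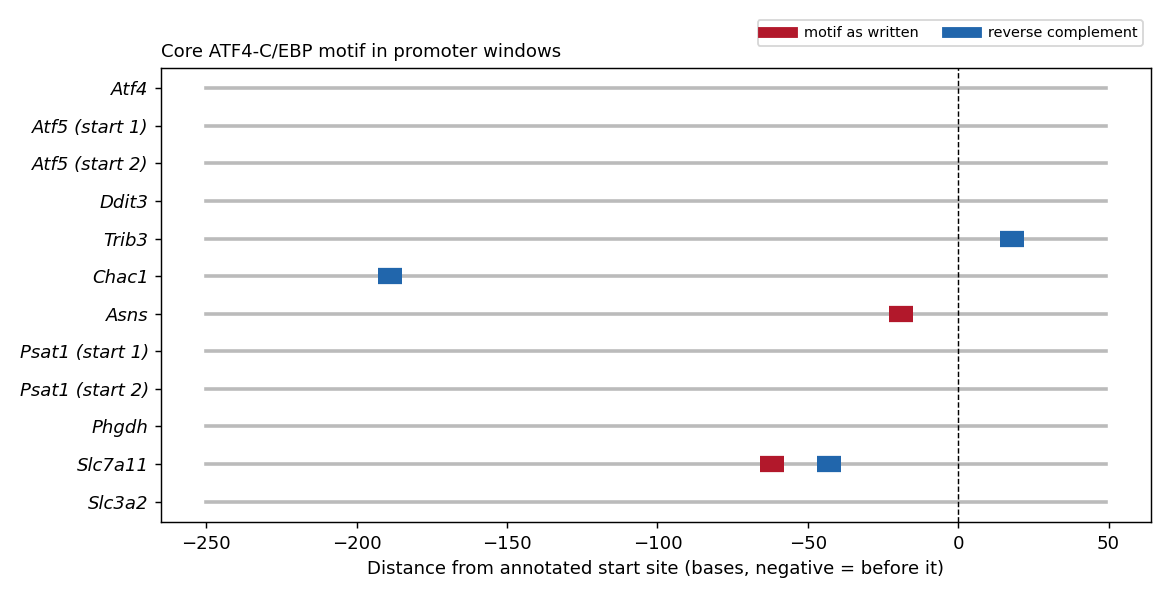
Position of the core motif in the 12 promoter windows of the 10 genes, in bases from the annotated start site, with red for the motif as written and blue for its reverse complement. Matches stand in 4 genes, and Slc7a11 holds both orientations, 59 to 66 and 40 to 47 bases before its start site.

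The libraries held 9559638 to 19483923 counts, and 1 count was worth 0.0442 to 0.11 CPM, the unit of all levels here, in which a count is scaled by the library size and its TMM factor. The targeted gene Syncrip had 20.1, 15.9 and 17.35 CPM with shRNA-1, 63.2, 46.3 and 60.45 CPM with shRNA-2, and 241, 231 and 207 CPM with the control hairpin, in the order the labels give. Counts of ribosomal RNA, read as Gm26924, mt-Rnr1 and mt-Rnr2, took 12 to 19.3% of the shRNA-1 libraries, 6.1 to 15.8% of the shRNA-2 libraries and 4.77 to 8.29% of the controls, so no shRNA-1 library overlapped the controls. Markers of the myeloid lineage and of leukaemia (Ptprc, Itgam, Spi1, Csf3r, Cd33, Hoxa9, Meis1 and Kit) were detected. Their summed level was 1150 to 1250, 1480 to 1730 and 1270 to 1380 CPM with shRNA-1, shRNA-2 and control. Single markers moved in both directions against control (adjusted p below 0.05 in edgeR's quasi-likelihood test). Of these 8, 1 rose and 4 fell with shRNA-1, beside 17.4% and 17.3% of all genes tested. With shRNA-2, 2 rose and 4 fell, beside 24.4% and 24.2%. Hoxa9, Meis1 and Csf3r fell and Cd33 rose with both hairpins. T cell, B cell and erythroid markers each summed to at most 17.8 CPM in any library, with Cd3g, Cd8a and Cd79a at 0 throughout. The summed stromal and endothelial markers were 6.04 to 8.58 CPM with shRNA-1, 19 to 21.9 with shRNA-2 and 19.2 to 32.2 CPM with control.

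The hairpins moved the 10 genes differently. With shRNA-2, 7 of the 10 fell against control and none rose: Atf4, Atf5, Trib3, Chac1, Asns, Psat1 and Phgdh. With shRNA-1, the transporter chains Slc7a11 and Slc3a2 rose and Trib3 fell, and the other 7 were not called. Of the 10, only Trib3 was called in the same direction with both hairpins, and both of these comparisons use the same 3 control libraries. Set against each other directly, the hairpins differed in 9 of the 10 genes, all higher with shRNA-1 than with shRNA-2, and Ddit3 was the exception. The 9 became 4 when shRNA-1 replicate 1 or shRNA-2 replicate 3 was left out, 5 when replicate 2 of either hairpin was, and 6 with total counts. In these fits 31.4 to 40.8% of all genes tested were called between the hairpins, against 41% in the main fit. A call here is an adjusted p below 0.05 in edgeR's quasi-likelihood test with Benjamini-Hochberg adjustment over all 12663 genes.

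These counts stand against a background in which many genes were called. With shRNA-1, 34.7% of all genes tested were called, so 3 of 10 is close to the share of all genes. With shRNA-2, 48.7% were called in either direction and 24.2% were lower, beside 7 of 10 lower members. Between the hairpins, 41% were called and 19.7% were higher with shRNA-1, beside 9 of 10 members. Of all genes tested, 9.57% were called lower with both hairpins. The median log2 fold change of the 10 genes was -0.14 with shRNA-1, -1.02 with shRNA-2 and 0.82 for shRNA-1 against shRNA-2, while the medians of all genes tested were 0.023, 0.0043 and 0.0041.

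Whether the libraries overlapped gave a similar picture without a model. For 3 of the 10 genes (Trib3 below, Slc7a11 and Slc3a2 above) all 3 shRNA-1 libraries lay outside the control range. The shares of all genes tested were 52.6% in either direction, 25.8% below and 26.8% above. For 8 of the 10 all 3 shRNA-2 libraries lay outside the control range, 7 below and Slc7a11 above. Here the shares of all genes were 55.4%, with 28.1% below and 27.3% above. The libraries of the hairpins kept apart from each other for 6 of the 10, with Ddit3 below and the other 5 above in shRNA-1. Over all genes this held for 49.8%, with 24.3% below and 25.5% above.

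**Figure D2:**
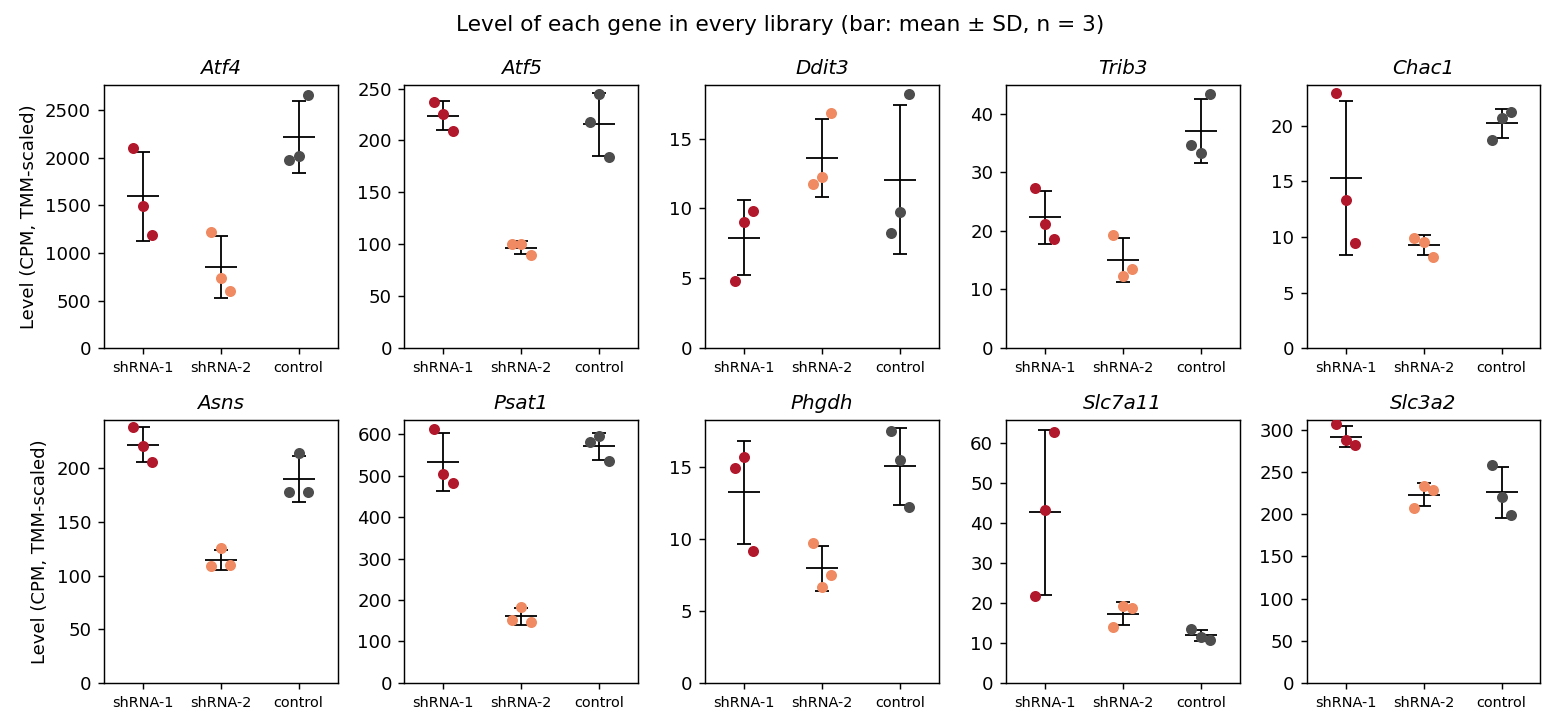
Level of each of the 10 genes in every library, in CPM scaled by TMM factors, with shRNA-1, shRNA-2 and control from left to right and bars at the mean ± SD of 3 libraries; each vertical axis starts at 0 and has its own range. Psat1 lies between 147 and 184 CPM in the shRNA-2 libraries and at 482 CPM or above in all others, and Slc7a11 is highest in the shRNA-1 libraries.

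Atf4 (chr15:80255184-80257541, plus strand; mm10 here and for all genes) encodes the factor at the head of the programme. Its level was 2106, 1494 and 1188 CPM with shRNA-1, 1217, 732 and 604 CPM with shRNA-2, and 1977, 2021 and 2659 CPM with control. The shRNA-1 libraries spread from the control range down to below the highest shRNA-2 library, while every shRNA-2 library lay under every control. The mRNA was 2.61-fold lower with shRNA-2 (log2 fold change -1.38 ± 0.27 SE, adjusted p = 0.00144), and the difference with shRNA-1 was -0.48 ± 0.27 (adjusted p = 0.19). With shRNA-1 it was higher than with shRNA-2 by 0.91 ± 0.27 (adjusted p = 0.0186), a call that did not survive leaving out shRNA-1 replicate 1 (adjusted p = 0.0878), shRNA-2 replicate 2 (0.058) or shRNA-2 replicate 3 (0.0805).

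Atf5 (chr7:44812256-44816658, minus strand) encodes a related bZIP factor whose translation is likewise favoured by eIF2 phosphorylation. It had 237, 225 and 209 CPM with shRNA-1, 100.3, 100.3 and 89.7 CPM with shRNA-2, and 218, 244.5 and 184 CPM with control. The shRNA-1 and control libraries were interleaved, and the shRNA-2 libraries lay below both and close to each other. Atf5 was 2.23-fold lower with shRNA-2 than with control (-1.15 ± 0.13, adjusted p = 3.11e-05) and 2.31-fold higher with shRNA-1 than with shRNA-2 (1.21 ± 0.13, adjusted p = 3.25e-05). With shRNA-1 the log2 fold change against control was 0.06 ± 0.13 (adjusted p = 0.77). Its exons overlap those of Nup62 and Il4i1 on the other strand, and because the strand setting of the counts is not given, their reads cannot be told apart. Nup62 averaged 270 ± 44.4, 253 ± 43.5 and 364 ± 17.0 CPM with shRNA-1, shRNA-2 and control (SD, n = 3 each), and Il4i1 at most 0.32 CPM.

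Ddit3 (chr10:127290774-127296288, plus strand) encodes CHOP, the factor that links lasting stress to cell death. Its level was 4.83, 9.06 and 9.78 CPM with shRNA-1, 11.7, 12.2 and 16.8 CPM with shRNA-2, and 8.26, 9.75 and 18.2 CPM with control. The control libraries spanned most of the range of the other 6, and the shRNA-1 libraries lay under the shRNA-2 libraries. None of the comparisons passed: the log2 fold change was -0.61 ± 0.32 with shRNA-1 (adjusted p = 0.16), 0.16 ± 0.30 with shRNA-2 (adjusted p = 0.681) and -0.77 ± 0.32 for shRNA-1 against shRNA-2 (adjusted p = 0.0738). Ddit3 rested on 44 to 411 counts per library. The difference of shRNA-1 from control passed in 2 of 17 alternative fits, without a filter (adjusted p = 0.0167) and with the replicate block (0.038). The difference between the hairpins passed in 5 of 17 alternative fits, among them DESeq2 (adjusted p = 0.0495), the replicate block (0.00679) and the fit without control replicate 3 (0.0296). Its exons overlap Mars, the methionyl-tRNA synthetase gene, on the other strand, which averaged 122 ± 22.5, 58.6 ± 6.05 and 187 ± 10.3 CPM with shRNA-1, shRNA-2 and control (SD, n = 3 each), so part of the Ddit3 count cannot be assigned with certainty.

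Trib3 (chr2:152337422-152344032, minus strand) encodes a pseudokinase that is induced by ATF4 and CHOP and dampens their activity. It had 27.3, 21.1 and 18.55 CPM with shRNA-1, 19.3, 12.4 and 13.4 CPM with shRNA-2, and 34.6, 33.3 and 43.3 CPM with control. All 6 knockdown libraries lay below all 3 controls, and the hairpins overlapped each other. Trib3 was 1.67-fold lower with shRNA-1 (-0.74 ± 0.19, adjusted p = 0.0131) and 2.46-fold lower with shRNA-2 (-1.298 ± 0.197, adjusted p = 0.000243). The call with shRNA-1 needed each of 3 libraries, and was gone without shRNA-1 replicate 2 (adjusted p = 0.0545), shRNA-1 replicate 3 (0.0566) or control replicate 3 (0.0666). It was lost too in a fit with a covariate for ribosomal RNA, the log2 share of these counts (-0.20, adjusted p = 0.567). That share did not overlap between shRNA-1 and control libraries, so for shRNA-1 such a fit cannot separate the hairpin from the share. The difference between the hairpins (0.56 ± 0.20, adjusted p = 0.0408) was lost in 10 of 17 alternatives, 7 of which left out 1 library: shRNA-1 replicate 1 (0.168) or 2 (0.0742), shRNA-2 replicate 2 (0.121) or 3 (0.135), or control replicate 1 (0.0641), 2 (0.0619) or 3 (0.0502).

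Chac1 (chr2:119351229-119354381, plus strand) encodes an enzyme that degrades glutathione and is one of the most inducible targets of ATF4. Its level was 22.95, 13.4 and 9.505 CPM with shRNA-1, 9.94, 9.59 and 8.23 CPM with shRNA-2, and 18.7, 20.75 and 21.2 CPM with control. The 3 shRNA-1 libraries ran from above the highest control to within the shRNA-2 range, and the shRNA-2 libraries all lay below the controls. Chac1 was 2.18-fold lower with shRNA-2 (-1.13 ± 0.25, adjusted p = 0.0029), and the difference with shRNA-1 was -0.42 ± 0.25 (adjusted p = 0.21). Replicate 1 decided the shRNA-1 value: without it the log2 fold change against control was -0.82 (adjusted p = 0.00863). The hairpins differed by 0.71 ± 0.26 (adjusted p = 0.0423), or by 0.31 without shRNA-1 replicate 1 (adjusted p = 0.227), and this call was also lost when shRNA-1 replicate 2 (0.0584), shRNA-2 replicate 2 (0.0712) or 3 (0.131) or any 1 control (0.0621, 0.0656 and 0.0614) was left out.

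The 3 enzymes fell with shRNA-2 and were not called with shRNA-1. Asns (chr6:7675169-7693254, minus strand) encodes asparagine synthetase, the enzyme that lets cells survive asparaginase. It had 239, 221 and 206 CPM with shRNA-1, 108.5, 126 and 109.6 CPM with shRNA-2, and 177.5, 215 and 178 CPM with control. The shRNA-1 libraries overlapped the controls, and no shRNA-2 library reached either. Asns was 1.66-fold lower with shRNA-2 (-0.73 ± 0.13, adjusted p = 0.000551), at 0.22 ± 0.12 with shRNA-1 (adjusted p = 0.182), and 1.94-fold higher with shRNA-1 than with shRNA-2 (0.95 ± 0.13, adjusted p = 0.000129).

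Psat1 (chr19:15904678-15947337, minus strand) encodes phosphoserine aminotransferase, which catalyses the middle step of serine synthesis. It showed the lowest shRNA-2 value relative to control of the 10 genes. The level was 612, 505 and 482 CPM with shRNA-1, 151.5, 184 and 147 CPM with shRNA-2, and 582, 596 and 535 CPM with control. The shRNA-1 libraries straddled the controls, and the shRNA-2 libraries stood far below both. Psat1 was 3.55-fold lower with shRNA-2 (-1.83 ± 0.14, adjusted p = 2.99e-06) and 3.31-fold higher with shRNA-1 than with shRNA-2 (1.73 ± 0.14, adjusted p = 5.73e-06). With shRNA-1 the log2 fold change was -0.0996 ± 0.14 (adjusted p = 0.611).

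Phgdh (chr3:98313170-98339990, minus strand) encodes phosphoglycerate dehydrogenase, which opens the serine pathway. It was counted at a low level, with 14.9, 15.7 and 9.14 CPM with shRNA-1, 9.69, 6.65 and 7.49 CPM with shRNA-2, and 17.49, 15.45 and 12.2 CPM with control. The shRNA-2 libraries did not reach the lowest control, and the shRNA-1 libraries overlapped both other groups. Phgdh was 1.88-fold lower with shRNA-2 (-0.91 ± 0.23, adjusted p = 0.00568), and the value with shRNA-1 was -0.18 ± 0.22 (adjusted p = 0.563). The hairpins differed by 0.73 ± 0.23 (adjusted p = 0.0243), and this call was lost when shRNA-1 replicate 1 (0.0795) or 2 (0.109) or shRNA-2 replicate 2 (0.0736) or 3 (0.0774) was left out. A search of the transcripts found 13 processed pseudogenes at least 95% identical to Phgdh over at least 200 bases, Gm7901 the closest at 98.7% over 1597 bases, so its reads may be split or lost.

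Slc7a11 (chr3:49892526-50443614, minus strand) encodes xCT, the light chain of the antiporter that imports cystine for glutathione synthesis in exchange for glutamate, and its loss from the membrane sensitises cells to ferroptosis. It had 21.7, 43.2 and 62.75 CPM with shRNA-1, 13.9, 19.2 and 18.6 CPM with shRNA-2, and 13.4, 11.5 and 10.8 CPM with control. The 3 groups did not overlap, with shRNA-1 highest and control lowest, and the shRNA-1 libraries were the most spread. Slc7a11 was 3.59-fold higher with shRNA-1 than with control (1.84 ± 0.30, adjusted p = 0.00101) and 2.48-fold higher with shRNA-1 than with shRNA-2 (1.31 ± 0.29, adjusted p = 0.00398). The value with shRNA-2 was 0.53 ± 0.30 (adjusted p = 0.157), and without shRNA-1 replicate 1, which enters this comparison through the shared estimate of the spread, it was 0.53 with an adjusted p of 0.0335. The shRNA-2 value passed in 3 of 17 alternatives: this one, the fit without a filter and the fit of only the 2 groups compared. In the fit with the ribosomal RNA covariate the rise with shRNA-1 was 1.33 (adjusted p = 0.0584). One annotated transcript of Slc7a11 shares 373 bases with the tubulin genes Tuba1a, Tuba1b and Tuba1c at 95.4 to 96.2% identity, and of these Tuba1a was also higher with shRNA-1 (0.88 ± 0.22, adjusted p = 0.00971) and with shRNA-2 (1.40 ± 0.22, adjusted p = 0.000315); how many reads were shared was not tested.

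Slc3a2 (chr19:8706882-8723369, minus strand) encodes the heavy chain CD98, which carries xCT and several other amino acid transporters to the membrane. Its level was 307, 288 and 282 CPM with shRNA-1, 208, 234 and 229 CPM with shRNA-2, and 258.5, 221 and 199 CPM with control. The shRNA-1 libraries lay above all others, and the shRNA-2 libraries fell within the control range. Slc3a2 was 1.29-fold higher with shRNA-1 than with control (0.37 ± 0.13, adjusted p = 0.0384) and 1.31-fold higher than with shRNA-2 (0.39 ± 0.13, adjusted p = 0.0275), and the value with shRNA-2 was -0.016 ± 0.13 (adjusted p = 0.927). The rise with shRNA-1 was lost in 9 of 17 alternatives: with total counts (0.13, adjusted p = 0.446), without a filter (0.119), under the ribosomal RNA covariate (0.462), or leaving out shRNA-1 replicate 1 (0.117), 2 (0.098) or 3 (0.0756), shRNA-2 replicate 3 (0.052) or control replicate 2 (0.118) or 3 (0.152). The difference between the hairpins did not pass once shRNA-1 replicate 1 (0.0903), 2 (0.0704) or 3 (0.0519) or shRNA-2 replicate 1 (0.066) or 3 (0.0626) was left out, nor without a filter (0.0785) or under the covariate (0.0919).

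**Figure D3:**
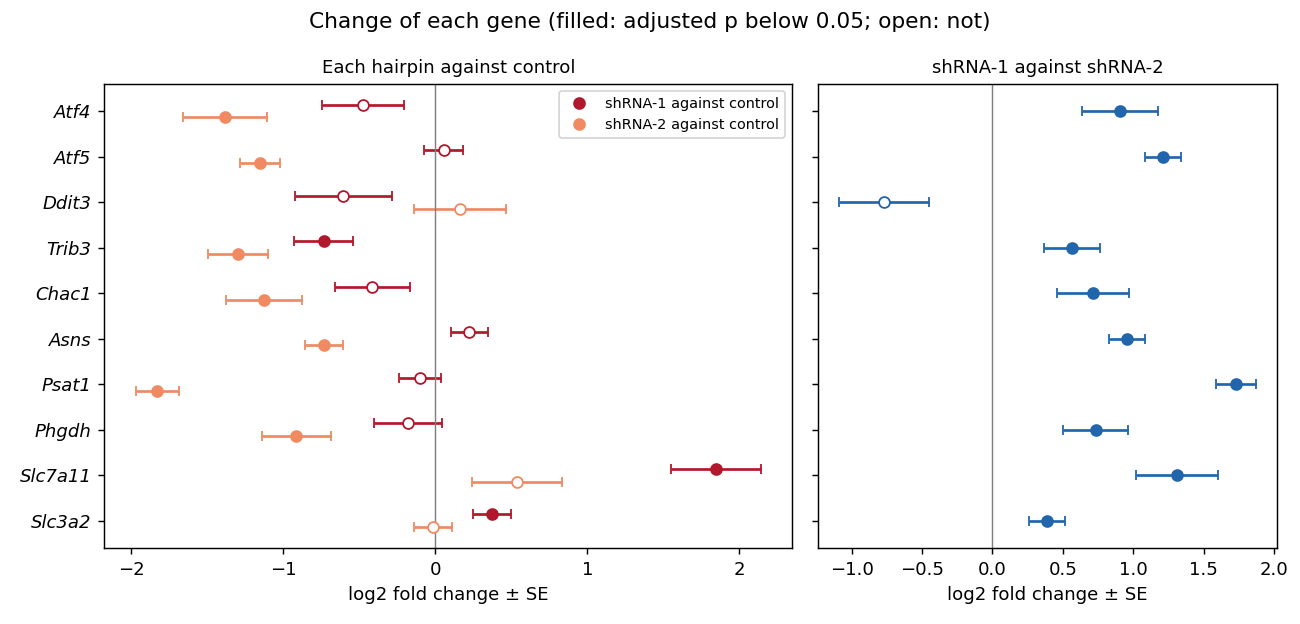
Log2 fold change ± SE of each of the 10 genes in edgeR's fit, with each hairpin against control on the left (dark red for shRNA-1, orange for shRNA-2) and shRNA-1 against shRNA-2 on the right; filled points have an adjusted p below 0.05. The 7 filled shRNA-2 points all lie below 0, from -1.83 for Psat1 to -0.73 for Asns, and 9 of 10 points on the right are filled and above 0.

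The 7 falls with shRNA-2 held in all 17 alternatives, including each fit without 1 library, with Chac1 and Phgdh the nearest to the threshold (highest adjusted p 0.0154 and 0.0313). In the contrast of the hairpins, Atf5, Asns, Psat1 and Slc7a11 held in all 17 as well. Monocyte and macrophage markers moved with shRNA-2. The summed level of these 7 markers was 523 to 930 CPM with shRNA-2, against 132 to 220 CPM with shRNA-1 and 124 to 159 CPM with control, and all 7 markers rose with shRNA-2 but 1 of 7 with shRNA-1. Of all genes tested, 24.4% were called higher and 24.2% lower with shRNA-2. With shRNA-1, 17.4% of all genes were higher, so 1 of 7 is near the share of all genes. Neutrophil markers summed to 28200 to 35800 CPM with shRNA-1, 34300 to 48600 CPM with shRNA-2 and 11800 to 12300 CPM with control, a sum made up mostly of S100a8 and S100a9. Of 5 tested, all 5 rose with shRNA-1, and 4 rose and Ltf fell with shRNA-2 (-1.15 ± 0.18, adjusted p = 0.000351), while Ly6g had at most 0.31 CPM in any library. Their part in the changes of the 10 genes was not tested, and in bulk libraries fewer cells of a type and less RNA per cell cannot be told apart.

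Upstream of ATF4 stand the 4 eIF2 kinases. The mRNA of Eif2ak1, the haem-regulated kinase HRI, was 52.1, 51.4 and 62.3 CPM with shRNA-2, against 38.8, 43.8 and 36.25 CPM with control, a rise of 0.48 ± 0.13 (adjusted p = 0.00802) that was lost with total counts (0.27, adjusted p = 0.146). With shRNA-1 its log2 fold change was 0.0062 ± 0.13 (adjusted p = 0.977). Eif2ak4, the kinase GCN2 that senses uncharged tRNA, had 14.3, 11.8 and 10.8 CPM with shRNA-1, against 16.1, 17.4 and 21.6 CPM with control, and its fall of -0.58 ± 0.18 (adjusted p = 0.024) was lost without shRNA-1 replicate 2 or 3 or control replicate 3 (adjusted p up to 0.116). The ribosomal RNA covariate ended it as well (-0.20, adjusted p = 0.599). With shRNA-2 it was -0.40 ± 0.17 (adjusted p = 0.0762).

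The other kinases had calls that rested on single libraries. Eif2ak2, the double-stranded RNA sensor PKR, was at -0.92 ± 0.32 with shRNA-1 (adjusted p = 0.0459) and lost that call in the fits that left out shRNA-1 replicate 1 or 2, shRNA-2 replicate 3 or any 1 control (adjusted p up to 0.16), and at -0.19 ± 0.31 with shRNA-2 (adjusted p = 0.635). Eif2ak3, the kinase PERK of the endoplasmic reticulum, was at 0.61 ± 0.21 with shRNA-2 (adjusted p = 0.0296), a call lost when shRNA-2 replicate 1 or control replicate 2 or 3 was left out (adjusted p up to 0.124), and at 0.44 ± 0.21 with shRNA-1 (adjusted p = 0.126). These are mRNA levels and carry no measure of kinase activity.

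Among the 14 genes of eIF2 control, which include the kinases, eIF2B subunits and the phosphatase cofactors, 1 rose and 3 fell with shRNA-1, and 3 rose and 4 fell with shRNA-2. These 4 and 7 of 14 are close to the shares of all genes called (34.7% and 48.7%), and the medians were -0.0798 and -0.21. With total counts the split was 0 higher and 6 lower with shRNA-1 and 1 and 7 with shRNA-2, and under the ribosomal RNA covariate none was called with shRNA-1. The 3 falls with shRNA-1 became 0 when its replicate 2 was left out and 1 when its replicate 3 or any 1 control was, and the 1 rise ranged from 0 to 3. Of 9 tested bZIP partners of ATF4, 2 rose and 2 fell with shRNA-1, and 4 rose and none fell with shRNA-2 (2 fell with total counts). The 4 of 9 called with either hairpin stand beside 34.7% and 48.7% of all genes. The 2 falls with shRNA-1 became 0 without its replicate 2 and 1 without its replicate 1 or 3 or control replicate 2 or 3. Cebpd, a C/EBP factor of myeloid cells, had 96.4, 103 and 108 CPM with shRNA-1, 97.4, 102.5 and 96.3 CPM with shRNA-2, and 75.8, 74.05 and 67.95 CPM with control. Its knockdown libraries all lay above its controls, with a log2 fold change of 0.4991 ± 0.11 with shRNA-1 (adjusted p = 0.00433) and 0.44 ± 0.11 with shRNA-2 (adjusted p = 0.00467). Both rises were lost with total counts (adjusted p = 0.0969 and 0.109), and the one with shRNA-1 also under the ribosomal RNA covariate (adjusted p = 0.105).

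Among the other stress targets of ATF4, more rose than fell with shRNA-2, and more fell than rose with shRNA-1. Of 17 tested, 7 rose and 1 fell with shRNA-2 (median 0.22), and 3 rose and 6 fell with shRNA-1 (median -0.13). Of all genes tested, 24.4% were called higher with shRNA-2 and 17.3% lower with shRNA-1. With total counts 4 rose and 3 fell with shRNA-2, and the 3 rises with shRNA-1 became 1 when its replicate 3 or control replicate 1 or 3 was left out. Under the ribosomal RNA covariate none rose and 3 fell with shRNA-1. The 1 fall with shRNA-2 became 0 under it and when shRNA-2 replicate 2 or 3 or any 1 control was left out. Ddit4, the mTORC1 inhibitor REDD1, was called in opposite directions, as were 2.66% of all genes tested. It had 19.7, 15.3 and 16.7 CPM with shRNA-1, 41.35, 57.1 and 50.7 CPM with shRNA-2, and 24.1, 26.8 and 32.9 CPM with control, so the 3 groups did not overlap. The log2 fold change was -0.70 ± 0.17 with shRNA-1 (adjusted p = 0.00766; 0.054 with the ribosomal RNA covariate) and 0.83 ± 0.16 with shRNA-2 (adjusted p = 0.00129), and the hairpins differed by -1.53 ± 0.17 (adjusted p = 3.77e-05).

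Hmox1 encodes haem oxygenase and is shared between ATF4 and NRF2. It had 40.6, 94.4 and 221 CPM with shRNA-1, 58.2, 110.7 and 96.9 CPM with shRNA-2, and 16.7, 30.8 and 37.8 CPM with control. The knockdown libraries were all above the controls but wide apart, in particular with shRNA-1. The log2 fold change was 2.06 ± 0.50 with shRNA-1 (adjusted p = 0.00832) and 1.64 ± 0.49 with shRNA-2 (adjusted p = 0.0163). The call with shRNA-2 was lost when shRNA-2 replicate 2 or control replicate 1 was left out (adjusted p up to 0.0651). Neither passed under the ribosomal RNA covariate (1.33, adjusted p = 0.27 with shRNA-1; 1.24, adjusted p = 0.0866 with shRNA-2).

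Among the amino acid synthesis enzymes beyond Asns, Psat1 and Phgdh, more fell than rose with each hairpin. Of 25 enzymes tested, 3 rose and 11 fell with shRNA-2 (median -0.36), and 3 rose and 6 fell with shRNA-1 (median -0.22). The shares of all genes tested were 24.4% higher and 24.2% lower with shRNA-2, and 17.4% and 17.3% with shRNA-1. The 11 falls became 7 when shRNA-2 replicate 2 or control replicate 1 or 2 was left out, and 6 when shRNA-2 replicate 3 was. The 6 falls with shRNA-1 became 3 without shRNA-1 replicate 2 or 3 or control replicate 2, 10 with total counts and 0 with the ribosomal RNA covariate. With both hairpins 3 fell and 1 rose, beside 9.57% and 9.24% of all genes tested, and the 3 became 1 without shRNA-1 replicate 2 or control replicate 2.

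Arg2, the mitochondrial arginase, was the enzyme that rose with both hairpins. It had 3.84, 6.22 and 8.12 CPM with shRNA-1, 3.74, 7.89 and 6.61 CPM with shRNA-2, and 0.76, 1.06 and 1.15 CPM with control. The knockdown libraries were all above the controls and shared 1 range, with a log2 fold change of 2.61 ± 0.36 (adjusted p = 0.000484) with shRNA-1 and 2.60 ± 0.36 (adjusted p = 0.000127) with shRNA-2. Cbs, which condenses homocysteine with serine, had 0.66, 0.31 and 0.55 CPM with shRNA-1, 0.49, 0.39 and 0.94 CPM with shRNA-2, and 1.82, 1.92 and 1.99 CPM with control, all low levels. It fell with shRNA-1 (-1.94 ± 0.397, adjusted p = 0.0034; 0.0634 with the ribosomal RNA covariate) and with shRNA-2 (-1.63 ± 0.36, adjusted p = 0.00285).

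Amino acid transporters moved in both directions. Of 18 tested, 5 rose and 10 fell with shRNA-2 (median -0.57), and 3 rose and 5 fell with shRNA-1, where the median was nonetheless positive (0.14). Of all genes tested, 24.4% were called higher and 24.2% lower with shRNA-2, and 17.4% and 17.3% with shRNA-1, so 3 and 5 of 18 are near the shares of all genes. With both hairpins 1 rose and 5 fell, beside 9.24% and 9.57% of all genes. These 5, and the 5 with shRNA-1, each became 3 without shRNA-1 replicate 2 or 3 or control replicate 1 or 2, and 1 with the ribosomal RNA covariate. Without single libraries 8 or 9 fell with shRNA-2.

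Slc1a4, the neutral amino acid exchanger ASCT1, had 5.82, 4.53 and 3.23 CPM with shRNA-1, 5.21, 4.56 and 3.85 CPM with shRNA-2, and 11, 12.5 and 11.2 CPM with control. It fell to a like level with both hairpins, with a log2 fold change of -1.36 ± 0.22 (adjusted p = 0.000975) with shRNA-1 and -1.34 ± 0.21 (adjusted p = 0.000311) with shRNA-2. Slc6a9, the glycine transporter GlyT1, had 2.75, 2.23 and 2.03 CPM with shRNA-1, 2.88, 1.08 and 1.15 CPM with shRNA-2, and 7.5, 8.29 and 7.12 CPM with control. Its fall was -1.71 ± 0.32 with shRNA-1 (adjusted p = 0.00213; 0.111 with the ribosomal RNA covariate) and -2.13 ± 0.32 with shRNA-2 (adjusted p = 0.000227). Slc7a3, a cationic amino acid transporter, stayed at or under 1.52 CPM in every library and fell with shRNA-1 (-1.77 ± 0.43, adjusted p = 0.00875; 0.0995 with the covariate) and with shRNA-2 (-2.32 ± 0.43, adjusted p = 0.000988).

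Slc7a8, the light chain LAT2 that pairs with CD98, was the transporter that rose with both hairpins. It had 31.1, 35.3 and 26.4 CPM with shRNA-1, 69, 55.1 and 47.2 CPM with shRNA-2, and 15.2, 14.5 and 10.3 CPM with control. The 3 groups did not overlap. The log2 fold change was 1.22 ± 0.19 with shRNA-1 (adjusted p = 0.000885) and 2.10 ± 0.19 with shRNA-2 (adjusted p = 6.97e-06), and the hairpins differed by -0.88 ± 0.18 (adjusted p = 0.00264).

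Genes of glutathione and of the NRF2 response, which share Slc7a11 with the ATF4 programme, had 4 rises and 1 fall with shRNA-1 and 5 rises and 1 fall with shRNA-2 among 13 tested (medians 0.21 and 0.034). These 5 and 6 of 13 are near the 34.7% and 48.7% of all genes called. The 4 rises became 2 without shRNA-1 replicate 3 or control replicate 3, and the 5 became 3 without shRNA-2 replicate 2 or control replicate 3. Srxn1, sulfiredoxin, had 104.9, 118 and 121 CPM with shRNA-1, 136, 110.5 and 108 CPM with shRNA-2, and 74.5, 67.6 and 65.4 CPM with control. All its knockdown libraries lay above its controls, by 0.73 ± 0.13 with shRNA-1 (adjusted p = 0.00143) and 0.77 ± 0.13 with shRNA-2 (adjusted p = 0.000406).

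The XBP1 and ATF6 branches of the unfolded protein response run beside PERK and ATF4. Of their 20 genes, 8 rose and 2 fell with shRNA-1 (median 0.29), and 10 rose and 1 fell with shRNA-2 (median 0.40). Of all genes tested, 17.4% were called higher and 17.3% lower with shRNA-1, and 24.4% and 24.2% with shRNA-2. With shRNA-1 the falls were Hspa5 (-0.47 ± 0.15, adjusted p = 0.0294) and Hsp90b1 (-1.10 ± 0.21, adjusted p = 0.00239). With shRNA-2 it was Pdia6 (-1.08 ± 0.14, adjusted p = 7.29e-05). The rise of Pdia6 with shRNA-1 (0.38 ± 0.14, adjusted p = 0.0483) was lost in 6 of 9 fits without 1 library. With both hairpins 7 were higher, beside 9.24% of all genes tested. The 7 became 3 with total counts, beside 2 lower, and 4 under the ribosomal RNA covariate. With shRNA-1 alone the split was 3 higher and 4 lower with total counts, and 4 higher and none lower under the covariate. The 8 became 5 without shRNA-1 replicate 2 or control replicate 3, and the 2 falls became 1 without any single shRNA-1 or control library. Dnajb9, a co-chaperone of BiP, had 34.3, 32.3 and 35.4 CPM with shRNA-1, 20.3, 18.6 and 13.3 CPM with shRNA-2, and 10.5, 11.9 and 10 CPM with control, with no overlap between groups. It rose by 1.65 ± 0.16 with shRNA-1 (adjusted p = 6.55e-05) and by 0.69 ± 0.16 with shRNA-2 (adjusted p = 0.00407).

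Edem1, which directs misfolded glycoproteins to degradation, had 168, 198 and 230.3 CPM with shRNA-1, 243, 341 and 277 CPM with shRNA-2, and 104, 101.5 and 90.3 CPM with control. Its log2 fold change was 1.01 ± 0.16 with shRNA-1 (adjusted p = 0.000849) and 1.54 ± 0.16 with shRNA-2 (adjusted p = 1.59e-05). Derl3, a channel protein of the same degradation route, was at 0.99, 1.38 and 1.29 CPM with shRNA-1, 3.68, 4.33 and 3.44 CPM with shRNA-2, and 0.20, 0.40 and 0.35 CPM with control. It rose by 1.94 ± 0.36 with shRNA-1 (adjusted p = 0.00205) and 3.57 ± 0.32 with shRNA-2 (adjusted p = 6.12e-06), and the controls held few counts of it.

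**Figure D4:**
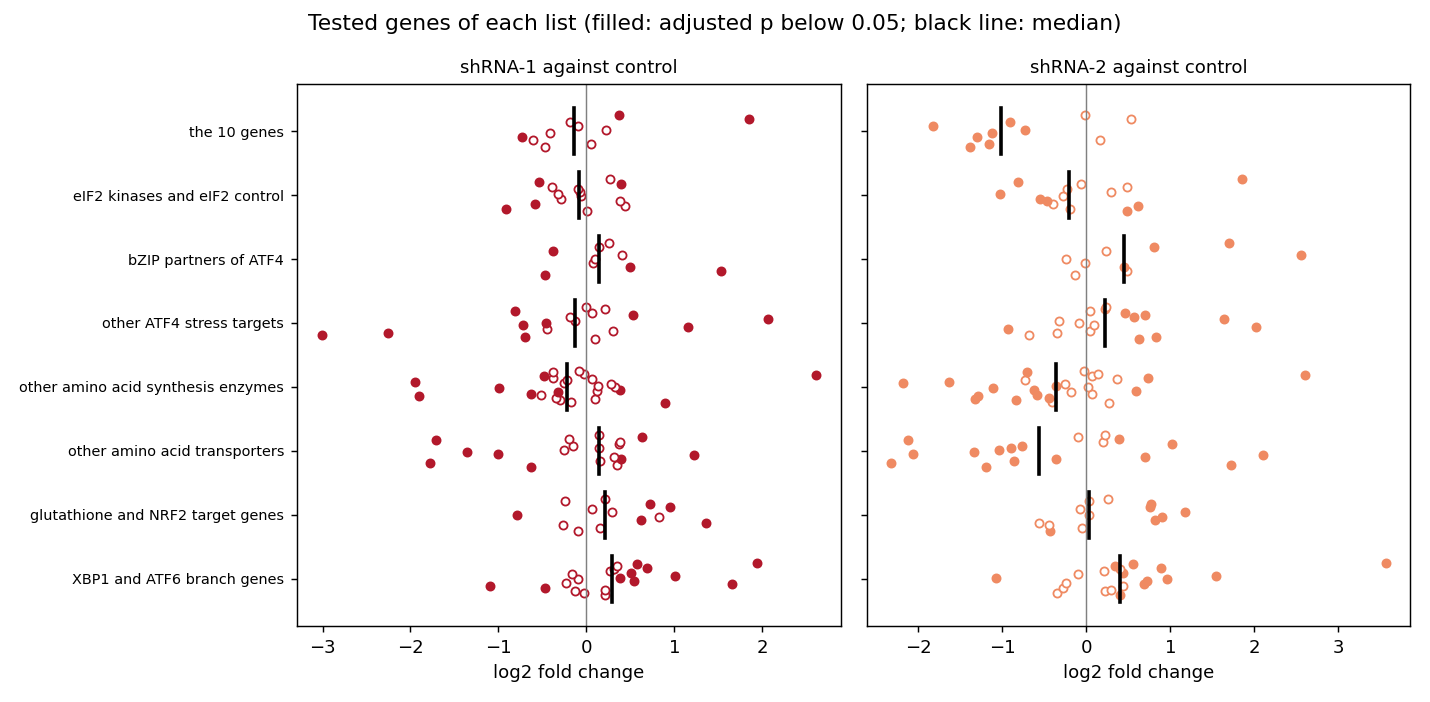
Log2 fold change of every tested gene of the 10 genes and of the 7 further lists, with shRNA-1 against control on the left and shRNA-2 against control on the right; filled points have an adjusted p below 0.05 and black bars mark list medians. The median of the 10 genes stands at -1.02 with shRNA-2, while that of the other ATF4 stress targets is at 0.22 and that of the XBP1 and ATF6 genes at 0.40.

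The same core motif stood in a promoter window of 4 of 14 matched genes among the other ATF4 stress targets, 2 of 8 bZIP partners, 2 of 18 synthesis enzymes and 2 of 15 transporters, beside 4.51% of all genes. It stood in none of 10 genes of eIF2 control, 12 glutathione genes and 16 XBP1 and ATF6 genes. Among the 10 genes described here, Asns, Chac1 and Trib3 with a match fell with shRNA-2, as did Atf4, Atf5, Psat1 and Phgdh without one, and Slc7a11 with a match on each strand rose with shRNA-1 and was not called with shRNA-2.

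Among the 5 genes whose levels followed Atf4 most closely over the 9 libraries, by Pearson correlation of log2 CPM among 8682 genes with a mean of at least 5 CPM, were Polr3gl (0.985), Gsk3a (0.979), Mmab (0.974) and Slc1a5 (0.974). Slc1a5, the glutamine transporter ASCT2, averaged 158 CPM with shRNA-1, 91.5 CPM with shRNA-2 and 188 CPM with control. For Asns they included Tmx2 (0.993), Snx12 (0.982), Ebpl (0.982) and Ube2g1 (0.982). Tmx2 averaged 25.5, 6.65 and 17.2 CPM with shRNA-1, shRNA-2 and control. These values describe 9 libraries of 3 groups, which share their depth and composition across genes.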

How the data were processed

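The authors deposited raw counts of reads for each gene symbol in a table per library, made from total RNA primed with oligo-dT and, for the other strand, random decamers, per the labels' protocols, so reads weigh the 3′ ends of transcripts. The submitters' processing notes name STAR 2.3.0e, HTSeq 0.6.0 and mm10. They give no annotation release, no strand setting and no rule for reads that map to several places, points not given in the sources used here. Entries were summed per symbol. The filter filterByExpr, run by group, left 12663 genes. These were scaled with TMM factors and tested in 1 fit of all 9 libraries with no term but the group (edgeR 4.0.16, R 4.3.3, quasi-likelihood test, Benjamini-Hochberg adjustment over all genes, called below 0.05). The common biological coefficient of variation was 0.165. The script was tested on simulated counts. Levels are CPM, and folds are relative to the other genes of a library.

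The 10 genes and the 7 further lists were chosen with earlier results of these data known, and lists are described by counts and medians without a set test. Batf3, Fgf21, Slc38a5, Slc43a1 and Ggt1 did not pass the filter and were not tested. Named were all 10 genes, Syncrip, the 4 eIF2 kinases and, per list, up to 3 rises and 3 falls called with both hairpins and up to 2 genes called in opposite directions. Of these, Gcn1l1, Gdf15, Sqstm1, Aldh1l2, Pycr1, Slc7a6, Nqo1 and Gpx1 lost a call in some fit without 1 library and enter only in the counts. Hmox1 and Pdia6, also such genes, are given with their limits. Outside these rules, Hspa5 and Hsp90b1 are given as the XBP1 and ATF6 genes that fell with shRNA-1. The 5 genes of highest correlation with Atf4 and with Asns, leaving out provisional names (Gm, LOC, BC, AK with digits, Rik endings), are given as a description. Some genes that these rules name are not reported here. Positions are from GENCODE M21 on GRCm38, the assembly of mm10; similar transcripts were sought with blastn 2.17.0 (at least 95% identity over 200 bases); promoter windows are from RefSeq GRCm38.p6. The alternatives were DESeq2 size factors, total counts, no filter, at least 5 CPM in 3 libraries, the DESeq2 1.42.0 test, a replicate block, only the 2 groups compared, a covariate for the log2 ribosomal RNA share, an adjusted p under 0.01, and leaving out each library in turn.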

Additional observations from a re-analysis of the deposited data

Results flagged for a closer look

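The hairpins target the same gene, and their effects on 9 of the 10 genes differed in a direct test (edgeR quasi-likelihood, Benjamini-Hochberg over all genes, 3 libraries each, shRNA-1 minus shRNA-2 on the log2 scale). The differences were 1.73 for Psat1, 1.31 for Slc7a11, 1.21 for Atf5, 0.95 for Asns, 0.91 for Atf4, 0.73 for Phgdh, 0.71 for Chac1, 0.56 for Trib3 and 0.39 for Slc3a2. Of all genes tested, 41% were called in this test, and 19.7% were higher with shRNA-1. The libraries of the hairpins did not overlap for Psat1, Slc7a11, Atf5, Asns and Slc3a2, and overlapped for Atf4, Phgdh, Chac1 and Trib3. They did not overlap for 49.8% of all genes tested, with shRNA-1 above in 25.5%. The count of 9 became 4 without shRNA-1 replicate 1 or shRNA-2 replicate 3 and 5 without replicate 2 of either hairpin. In these fits 31.4 to 40.8% of all genes tested were called, against 41%. Syncrip itself averaged 17.8 CPM with shRNA-1 and 56.7 CPM with shRNA-2.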

How the results depend on the processing

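Of the alternative values for the 10 genes, 436 kept direction and side of the threshold, 49 lost a call, 12 gained one and 13 changed sign, none of them a called value. Under the ribosomal RNA covariate 0 of the 10 genes were called with shRNA-1. No shRNA-1 library overlapped the controls in ribosomal RNA share, so the covariate fit cannot separate this hairpin from that share. With an adjusted p under 0.01, 1 was called with shRNA-1, and between the hairpins the stricter threshold left 4. The shares of all genes at that threshold were not taken. Leaving out 1 library gave 1 to 3 calls with shRNA-1, 7 to 8 with shRNA-2 and 4 to 8 between the hairpins. In these fits 22.6 to 40.2%, 39.7 to 49.9% and 31.4 to 42% of all genes tested were called. The correlations of same-numbered deviations ran from -0.129 to 0.335, with 6 of 9 above 0.1 but not all 3 in any comparison, and not every library correlated best with its own number, so the numbers were not taken as pairs. The fit with the replicate block called 4, 7 and 10 of the 10 genes in these comparisons. Of all genes it called 39.2%, 52.5% and 44.5%, against 34.7%, 48.7% and 41% without the block. With shRNA-1 these were 4963 genes, against 4389. With total counts the median of all genes was -0.226 (shRNA-1) and -0.214 (shRNA-2), and the share of higher calls 23.8% and 33.6%, against 50.1% and 50.2% with TMM; over all genes with shRNA-1, the covariate fit called 1358 and the fit without shRNA-1 replicate 2 called 2925, against 4389.

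The sign changes with shRNA-1 were, with the covariate, 0.17 for Atf4, -0.031 for Atf5 and 0.093 for Phgdh; with total counts, -0.19 for Atf5 and -0.022 for Asns; without control replicate 3, -0.043 for Atf5; and without shRNA-1 replicate 3, 0.026 for Phgdh. Without 1 library the highest Atf5 value was 0.15 and the lowest Phgdh value -0.33. With shRNA-2 they were, for Ddit3, -0.065 with total counts, -0.015 without shRNA-2 replicate 3 and -0.036 without control replicate 1, and for Slc3a2, 0.026 with the 5 CPM filter, 0.047 without shRNA-2 replicate 1 and 0.11 without control replicate 1. Without 1 library the highest Ddit3 value was 0.61 and the lowest Slc3a2 value -0.084. The causes were not tested. Depth limits Ddit3, Phgdh, Chac1, Slc7a11 and Trib3 most, and a difference between libraries of these genes also carries counting error.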
